A study of Bos taurus with 20 samples.

Results

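HSPB8, a small heat shock protein gene, was studied here together with 5 further small heat shock protein genes (HSPB1, HSPB2, HSPB6, HSPB7 and CRYAB) and with BAG3, the co-chaperone that pairs with HSPB8. These 7 genes were found by their symbols among the 33063 named genes of the count table. HSPB8 was chosen because its difference between conditions varied between animals in these same data, so its values are given as a description with no test. The other 6 genes were chosen by family and function, also with earlier results of these data known, and all 7 passed the filter on low counts that left 12900 genes for testing.

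The cells were mesenchymal stem cell (MSC) clones from visceral fat of Holstein Friesian x Aberdeen Angus calves. Each clone was grown from a single sorted cell in medium with serum and bFGF, and was sequenced once, before any differentiation was induced. The 10 adipogenic (A) clones were those that formed the most adipocytes in differentiation tests, and the 10 non-adipogenic (N) clones formed none. Animals 17 and 20 gave 1 clone of each condition, and animals 22 and 23 gave 4 of each. Clones are named by animal and clone number, such as 22-5, and levels are CPM, read counts scaled to the size of the library with TMM factors. The clones of an animal shared its culture, and p-values measure the spread between clones.

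Small heat shock proteins hold unfolding proteins in a soluble state until ATP-driven chaperones refold them or hand them to degradation. HSPB8 works largely bound to BAG3, which also binds Hsp70 and the autophagy receptor SQSTM1 and so routes damaged filamin and other clients to chaperone-assisted autophagy. Several family members are best known from muscle, where they act on actin, desmin and filamin, and all are also found in other contractile or stressed cells. Adipocyte precursors carry a contractile, actin-rich cytoskeleton that is remodelled as they fill with lipid.

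Libraries held 14615493 to 43111345 counts on named genes, with the highest total in N clone 22-18. The MSC surface genes ITGB1 and CD44 reached at least 1584 and 231 CPM in every clone, while the leukocyte gene PTPRC and the endothelial genes CDH5 and KDR had at most 7, 5 and 8 counts. Other genes of those lists were counted more often, with up to 137 counts of CD68 and 135 of CD14, and up to 30.1 CPM of VWF and 16.3 CPM of PECAM1. Clone 22-5 stood apart, with 7 counts of THY1 and 9 of NT5E, which are MSC markers, and with the highest sum of 7 mesothelial genes (9198 CPM, followed by 6512 CPM in N clone 22-9 and at most 1095 CPM elsewhere). Since each library is bulk RNA, fewer cells of a type and less RNA per cell cannot be told apart.

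HSPB8 was nearly absent from the 4 N clones of animal 23 and readily counted in the other 16 clones. The N clones of animal 23 held 3, 1, 1 and 3 counts in clones 23-10, 23-22, 23-23 and 23-74, which corresponded to 0.177, 0.0631, 0.0600 and 0.146 CPM. The A clones of the same animal held 410, 699, 404 and 172 counts in clones 23-14, 23-62, 23-68 and 23-108, or 26.9, 42.8, 29.1 and 6.30 CPM. The groups of animal 23 did not overlap, and neither did those of 18.2% of all tested genes in this animal, whatever the size of the gap. Summed over clones, 1685 counts in A stood against 8 in N. Scaled to the size of the libraries with TMM factors, the ratio was 203 (exact 95% interval 103 to 470.2, which covers counting error only). HSPB8 was chosen for its difference between animals, so this interval is a description and not a test. It does not cover the spread between clones.

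In animal 22 the N clones 22-5, 22-9, 22-17 and 22-18 had 28.3, 24.0, 27.9 and 92.6 CPM of HSPB8, and the A clones 22-11, 22-16, 22-27 and 22-121 had 51.9, 65.6, 34.3 and 18.5 CPM. These groups overlapped, with means of 43.2 ± 33.0 CPM in N and 42.6 ± 20.6 CPM in A (SD, n = 4). The pairs of clones from the remaining animals went in opposite directions. In animal 17 HSPB8 was at 30.9 CPM in N and 132.9 CPM in A, the highest level of all 20 clones. In animal 20 it was at 76.6 CPM in N and 9.02 CPM in A.

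**Figure D1:**
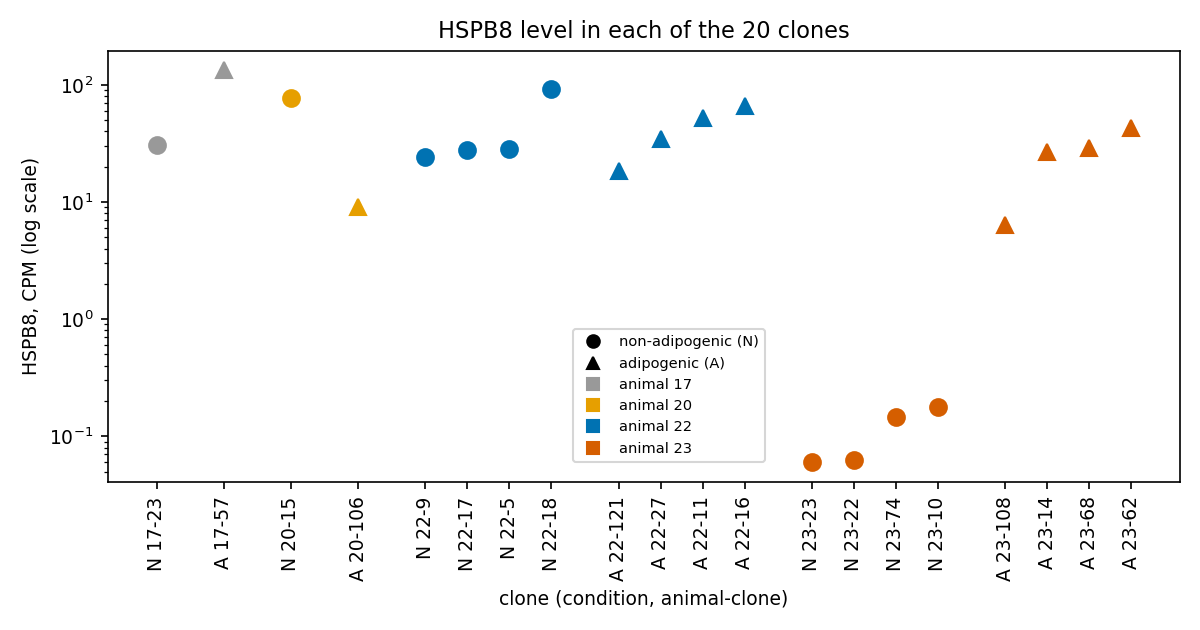
HSPB8 level in each of the 20 clones, in CPM on a log axis, by animal and condition (N, non-adipogenic; A, adipogenic), with 1 point per clone. The N clones of animal 23 lie between 0.0600 and 0.177 CPM, and the other 16 clones lie between 6.30 and 132.9 CPM.

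The difference between A and N clones on the log2 scale was 7.77 (SE 0.848) within animal 23 and -0.03 (SE 0.544) within animal 22, and their difference was 7.80 (SE 1.01). Because the choice of HSPB8 rested on that difference, the SEs are a description and not a test. Over all 20 clones, with animal as a block, the log2 difference was 2.04 (SE 1.12). This pooled value moved widely with the animals in the fit: it was -0.12 without animal 23 and 4.86 without animal 22. It was 0.57 with no block and 0.58 with limma-voom. The fitted values rest on a small number added to the very low counts, and the ratio of summed counts above has no such term. A and N clones overlapped over the 4 animals together, with 7 of 10 A clones above the N median. That N median, 26.0 CPM, includes the 4 low clones of animal 23. Over the 6 N clones of animals 17, 20 and 22 the median was 29.6 CPM, and over all A clones it was 31.7 CPM.

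A total of 106 genes, 0.822% of those tested, had all 4 N clones of animal 23 below the other 16 clones. Among them, HSPB8 had the widest gap, 4.51 on the log2 CPM scale between the highest of the 4 and the lowest of the 16. The next were PTPRK, a receptor tyrosine phosphatase, with a gap of 2.47, and ANKRD45 with 2.23. HSPB8 was chosen for its difference between animals, so its rank is only a description. PTPRK and ANKRD45 were picked after their values were seen. Genes near HSPB8 in the RefSeq order of assembly ARS-UCD2.0 that passed the filter on low counts did not share its gap. SUDS3 lay at 13.4 to 15.3 CPM in the N clones of animal 23 and 11.0 to 15.3 CPM in the others, and TAOK3 at 23.0 to 32.6 and 20.8 to 37.6 CPM. PRKAB1, a subunit of AMP-activated protein kinase, was low but overlapped, at 12.0 to 17.0 and 13.7 to 32.8 CPM. The nearest genes, CCDC60 and SRRM4, had at most 8 and 3 counts in any clone, and TMEM233 had at most 11. These counts are too low to show whether the 3 genes shared the gap.

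The 5 genes whose level across the 20 clones was most like that of HSPB8 were NCOA4, ANKRD45, PTPRK, SDR42E1 and TMC6, with Pearson correlations of 0.89, 0.89, 0.89, 0.88 and 0.86 on log2 CPM (Spearman 0.78, 0.62, 0.53, 0.69 and 0.83). NCOA4, the receptor that delivers ferritin to autophagy, lay at 86.5 to 91.4 CPM in the N clones of animal 23 and at 101 to 133 CPM in the other 16. PTPRK lay at 0.583 to 2.12 and 12.2 to 48.2 CPM. The groups of 4 and 16 clones were apart for both genes, by a small step in NCOA4 and a large step in PTPRK. In TMC6 they overlapped, at 0.354 to 16.4 and 15.0 to 66.7 CPM. With the 4 clones left out, the Pearson correlations became 0.52, 0.20, 0.12, 0.42 and 0.73 in the order above, so that the likeness of ANKRD45 and PTPRK to HSPB8 came mostly from those 4 clones.

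The 3 genes least like HSPB8 were MTMR2, ACTR3 and PDE3B, with Pearson correlations of -0.84, -0.82 and -0.80 (Spearman -0.77, -0.72 and -0.69). PDE3B, a cyclic nucleotide phosphodiesterase known for restraining lipolysis in adipocytes, lay at 78.5 to 86.6 CPM in the N clones of animal 23 and at 0 to 35.5 CPM elsewhere. ACTR3, a subunit of the Arp2/3 actin-nucleating complex, lay at 707.6 to 857 and 508 to 679 CPM. MTMR2 lay at 102 to 107 and 52.4 to 82.9 CPM. All 3 genes were highest in the 4 clones where HSPB8 was lowest. They were picked by their correlation with HSPB8, and the share of all genes highest in those 4 clones was not counted. The correlations fell to -0.46, -0.31 and -0.46 without these clones. All these correlations are over 20 libraries that share 4 animals.

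**Figure D2:**
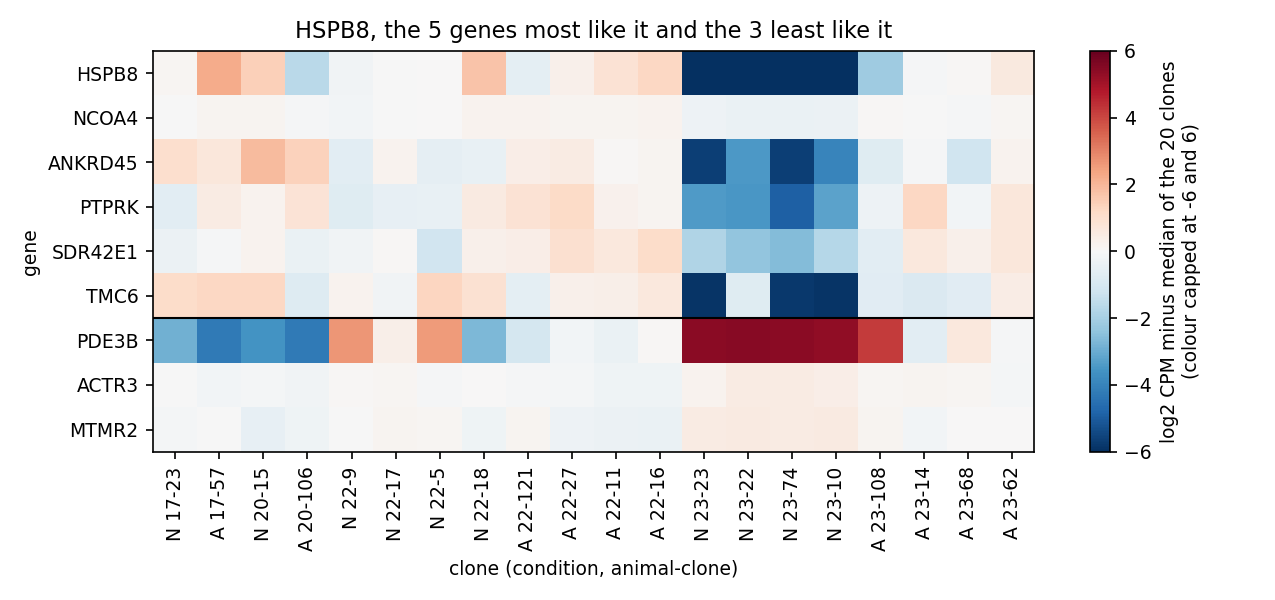
Level of HSPB8 and of the 5 most like and 3 least like genes in each clone, as log2 CPM minus the gene's median over the 20 clones, with the colour capped at -6 and 6. The N clones of animal 23 form the block where HSPB8, ANKRD45 and PTPRK are far below their medians and PDE3B is far above. TMC6 is far below its median in clones 23-10, 23-23 and 23-74, but not in clone 23-22.

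The other 6 genes were then compared between A and N clones over all animals. Only HSPB2 passed the test (edgeR quasi-likelihood F test with animal as a block, Benjamini-Hochberg adjusted p under 0.05 over 12900 genes), or 1 of 6, while 20.6% of all tested genes passed, 10.3% in each direction. None of the 7 genes separated every A from every N clone, a pattern seen in 0.318% of genes.

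HSPB2, which binds and activates the myotonic dystrophy protein kinase in muscle, was lower in A clones. Its level was 2.95, 5.81 and 10.7 CPM in N clones (lowest, median, highest) and 2.60, 4.06 and 6.75 CPM in A clones. The groups overlapped, but 9 of 10 A clones lay below the N median and the mean was lower in A in all 4 animals. In some of these animals the mean was the value of a single clone. The share of all tested genes with the same direction in every animal was not counted. Means were 6.02 ± 2.13 CPM in N and 3.94 ± 1.21 CPM in A (SD, n = 10 each), a fall of 1.53-fold in the fit (log2 -0.61, SE 0.182, edgeR adjusted p = 0.0262).

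HSPB2 had only 43 to 221 counts per clone. Its adjusted p moved past the threshold with no block (0.0515), with limma-voom (0.0542), without animal 22 (0.0781), without animal 23 (0.200) and without N clone 23-74 (0.0519), while the log2 difference stayed between -0.70 and -0.53. CRYAB is the gene beside it in the RefSeq order, the strand setting of the counting is not given in the sources used here, and the Pearson correlation of the pair over the 20 clones was 0.42.

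HSPB6 (Hsp20), known for its part in smooth muscle relaxation, had higher values in A clones, but the difference did not pass the test. Its level was 11.2, 175 and 375 CPM in N clones (lowest, median, highest) and 214, 357 and 813 CPM in A clones. Every A clone lay above the N median, 4 A clones lay above every N clone, and the A mean was higher in all 4 animals. As for HSPB2, some of these means were single clones, and the share of all tested genes with such agreement was not counted. Means were 195.7 ± 115 and 393 ± 174 CPM (SD, n = 10 each), with a log2 difference of 1.03 (SE 0.416, 95% interval 0.15 to 1.90, edgeR adjusted p = 0.0857). DESeq2 called it (log2 1.04, adjusted p = 0.0333), as did edgeR without N clone 22-5 (log2 0.89, adjusted p = 0.0441) and without N clone 22-18 (log2 1.23, adjusted p = 0.0426); over the other alternatives that kept all clones or left out 1 animal the edgeR and limma adjusted p reached up to 0.411.

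The lowest HSPB6 value was that of N clone 22-5, at 11.2 CPM, while its fellow N clones ranged from 102 to 375 CPM. Several contractile genes were low in the same clone. SYNPO2, the myopodin-family partner of BAG3 in autophagy, was also at 11.2 CPM there and at 76.8 to 281 CPM in the remaining N clones. LMOD1 was at 2.15 CPM there and 37.9 to 133 CPM in the remainder, and ACTA2 at 99.4 CPM and 247 to 5621 CPM. Not all listed contractile genes had their N minimum there, as SMTN was lowest, at 30.9 CPM, in an N clone of animal 23. In clone 22-5 KRT8, a keratin of mesothelial cells, was at 4779 CPM, the highest of all clones. The part of these differences in the HSPB6 result was not tested beyond leaving the clone out.

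HSPB7, a cardiovascular family member that binds filamin C, spread widely within each group. Its level was 4.85, 87.2 and 449 CPM in N clones (lowest, median, highest) and 49.5, 117 and 462 CPM in A clones. The A mean was higher in all 4 animals, most of all in animals 17 and 20. There N clones had 8.99 and 4.85 CPM and A clones 70.4 and 57.8 CPM. These were single clones, and the share of all tested genes higher in A in every animal was not counted. The groups overlapped and the log2 difference of 1.08 (SE 0.584, 95% interval -0.15 to 2.31) did not pass (edgeR adjusted p = 0.189).

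CRYAB, which encodes alpha B-crystallin, a chaperone of the lens and of desmin, had no common direction. It was at 71.0, 341 and 894 CPM in N clones and 138, 263 and 642 CPM in A clones (lowest, median, highest). The A mean was higher in animals 17 and 20 and lower in animals 22 and 23, and the log2 difference was -0.25 (SE 0.423, 95% interval -1.15 to 0.64, edgeR adjusted p = 0.698). HSPB1 (Hsp27), a chaperone that also binds actin, was at 391, 659 and 1107 CPM in N clones and 405, 675 and 1288 CPM in A clones. These ranges nearly coincided, with a log2 difference of 0.31 (SE 0.238, 95% interval -0.19 to 0.81, edgeR adjusted p = 0.361).

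BAG3 was the steadiest of the 7 genes. It was at 97.2, 107 and 138 CPM in N clones and 83.6, 120 and 183 CPM in A clones (lowest, median, highest), a range of 2.19-fold over all 20 clones. The log2 difference was 0.14 (SE 0.132, 95% interval -0.13 to 0.42, edgeR adjusted p = 0.445). In the N clones of animal 23, where HSPB8 had 1 to 3 counts, BAG3 stood at 99.8 to 130.0 CPM, within the 83.6 to 183 CPM of the other clones. HSPB1, HSPB2, HSPB6, HSPB7 and CRYAB in these 4 clones also overlapped the other 16. HSPB2 leaned high there, with a mean of 7.46 CPM against 4.36 CPM in the other 16. Clones 23-22 and 23-74, at 7.89 and 10.7 CPM, lay above the 6.75 CPM maximum of those 16. CRYAB ran from 71.0 to 894 CPM in the 4 clones, beyond both ends of the 95.2 to 642 CPM of the others.

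**Figure D3:**
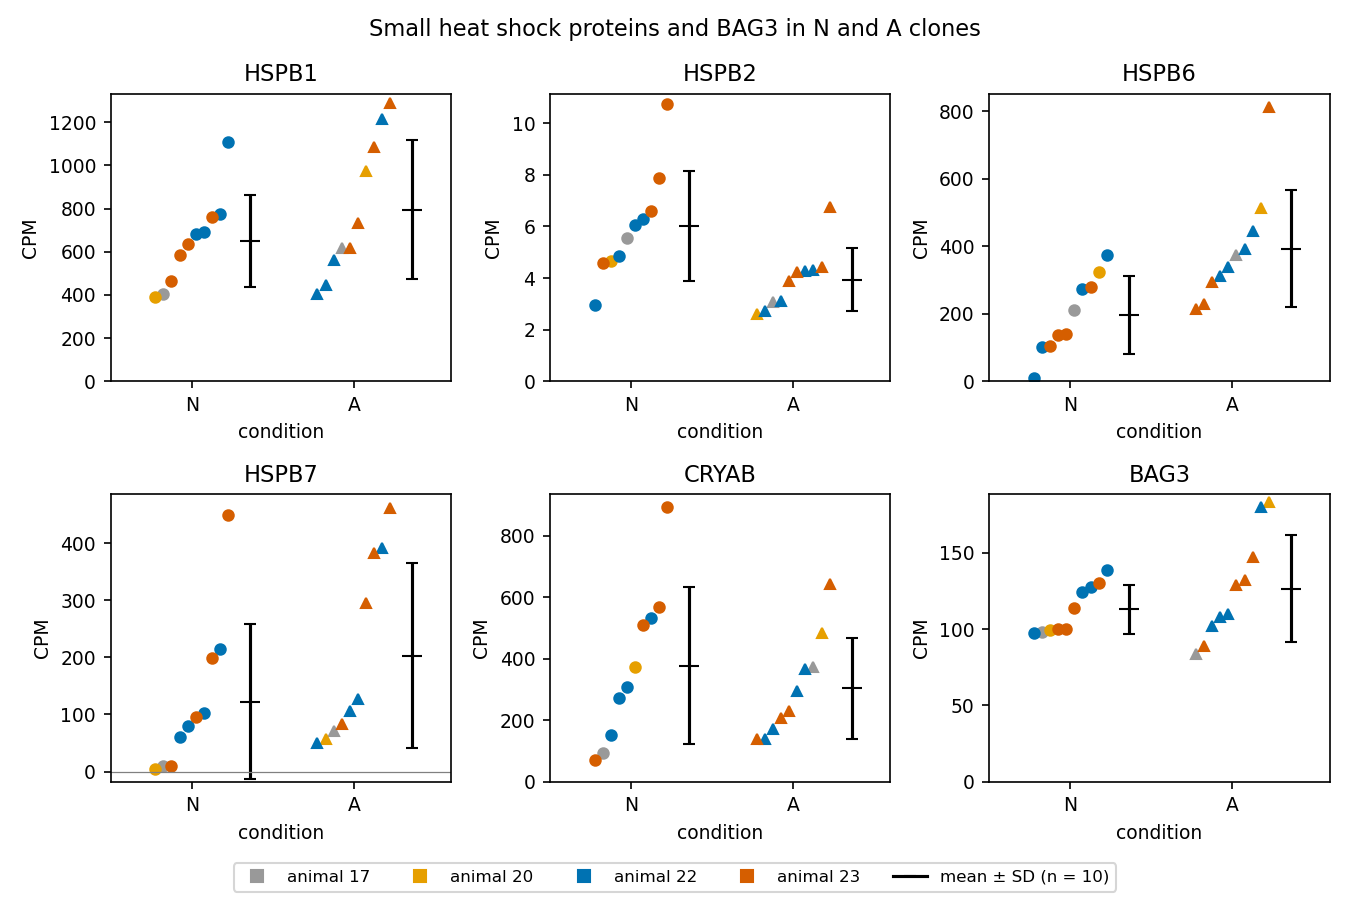
Levels of the other 6 genes in the 10 N and 10 A clones, in CPM, with 1 point per clone coloured by animal and bars for the mean ± SD (n = 10 each). N and A clones overlap in every panel, and the SD bar of HSPB7 in N reaches below 0 because its SD of 136 CPM exceeds its mean of 122 CPM.

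The 16 clones of animals 22 and 23 were used to test whether the A against N difference itself changed between animals. None of the other 6 genes passed by edgeR (0 of 6, with 0 of 6 at an unadjusted p under 0.05), and 0 of 6 passed by DESeq2 or limma-voom, where the unadjusted counts were also 0. Of all tested genes, 0.031% passed by edgeR and 9.06% had an unadjusted p under 0.05. HSPB1 had the largest difference, 0.91 on the log2 scale (SE 0.475, 95% interval -0.10 to 1.93, edgeR adjusted p = 0.592), being 0.60 in animal 23 and -0.31 in animal 22. The interval was narrow for BAG3 (-0.47 to 0.72) and wide for HSPB7 (-2.46 to 2.75). None of the 6 genes had A and N clones that did not overlap within animal 22 (12.4% of all genes) or within animal 23.

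**Figure D4:**
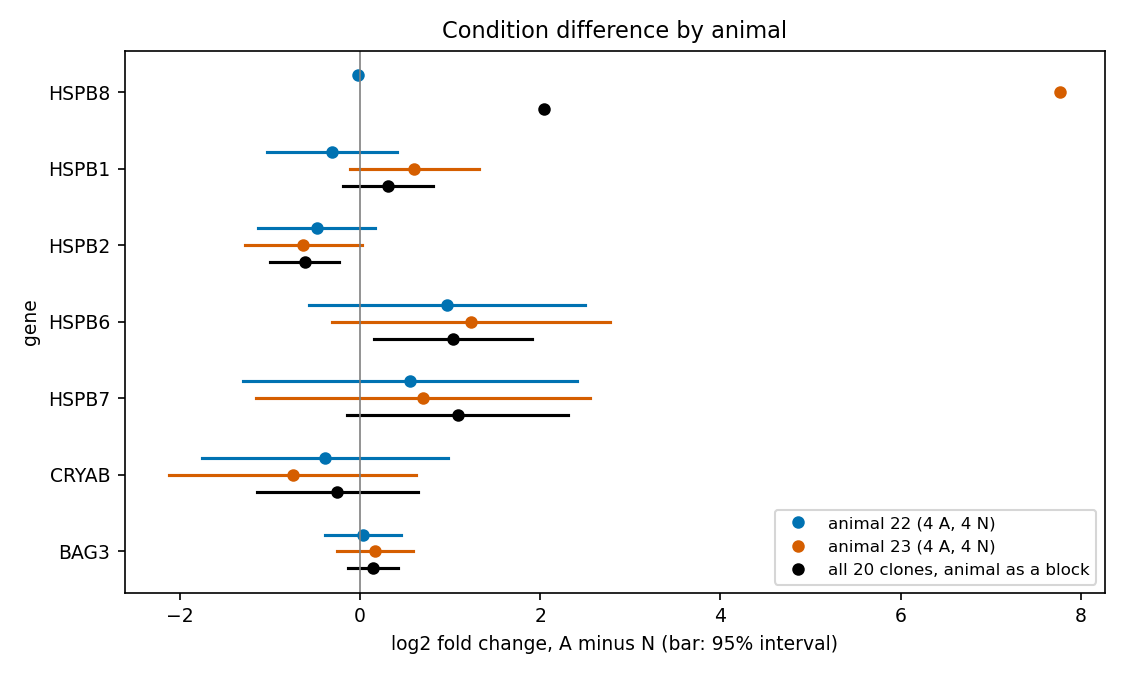
Log2 difference between A and N clones for each of the 7 genes over all 20 clones, within animal 22 and within animal 23, as points with 95% intervals for the 6 genes that were tested and without an interval for HSPB8. HSPB8 lies near 0 in animal 22 and at 7.77 in animal 23, and the other genes have intervals that overlap between the animals.

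Spread between clones of the same animal and condition differed among the 7 genes. The SD of log2 CPM was highest for HSPB7, followed by 1.27 for HSPB6, 1.06 for CRYAB, 0.87 for HSPB8, 0.49 for HSPB1, 0.42 for HSPB2 and 0.28 for BAG3, against a median of 0.32 over all tested genes. HSPB7 and HSPB6 were therefore more variable between clones than 96.0% and 93.9% of genes, and BAG3 lay near the median. The value of HSPB6 rested on N clone 22-5: without that clone, a choice made after seeing the data, its SD was 0.71, below those of CRYAB (1.06) and HSPB8 (0.90), and larger than that of 84.7% of genes. The total range of HSPB8 over 20 clones exceeded that of 99.1% of genes, while its spread within an animal and condition exceeded that of 87.6%. The spread includes the N clones of animal 23, at 1 to 3 counts, where the prior count of 2 draws log2 CPM values together. That total range includes the difference for which HSPB8 was chosen, so it is only a description.

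Correlation with BAG3 across clones was given as a description. HSPB1 followed BAG3 most closely (Pearson 0.69, Spearman 0.64, n = 20), with Pearson 0.60 when the 2 clones with the most extreme BAG3 values were left out, and 0.78 and 0.59 within the 8 clones of animal 22 and of animal 23. HSPB7 came next (Pearson 0.45, Spearman 0.49). HSPB8 itself had a Pearson correlation of -0.03 with BAG3 (Spearman -0.23), 0.08 within animal 22 and 0.21 within animal 23. Between the small heat shock proteins, HSPB1 and HSPB7 had 0.69 (Spearman 0.61) and HSPB8 and HSPB2 had -0.62 (Spearman -0.61). These points share animals and library preparation, and 4 clones at 1 to 3 counts weigh on every value for HSPB8.

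The remaining family and pathway genes were read from the same fit over all 20 clones, in which the median log2 difference of all tested genes was -0.01, with 10.3% of them called higher and 10.3% lower in A. Among 5 other small heat shock proteins, HSPB3, HSPB9, CRYAA and ODF1, which are known from muscle, testis and lens, had 0 counts in every clone, and HSPB11 did not pass (log2 0.00, SE 0.162). Of 5 other BAG family genes, 1 rose and none fell, with a median of 0.08. It was BAG4, a silencer of death receptor signalling, at 16.8 ± 3.33 CPM in N and 28.6 ± 9.03 CPM in A (SD, n = 10 each; log2 0.73, SE 0.153, edgeR adjusted p = 0.00496), and 8 of 10 A clones lay above every N clone.

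Of 10 partners in chaperone-assisted autophagy, 1 rose, 1 fell and 8 did not pass, with a median of 0.15. In each direction this was near the 10.3% of all tested genes called. DNAJB6, an Hsp40 co-chaperone that binds BAG3, was at 145 ± 31.4 CPM in N and 193 ± 27.2 CPM in A (log2 0.42, SE 0.122, edgeR adjusted p = 0.0239). HDAC6, which carries aggregates along microtubules, fell from 24.0 ± 6.54 to 15.8 ± 5.01 CPM (log2 -0.60, SE 0.190, edgeR adjusted p = 0.0341). HSPA8, the constitutive Hsp70, the ubiquitin ligase STUB1, and the autophagy genes SQSTM1 and MAP1LC3B were among those that did not pass.

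Of 17 cytosolic and mitochondrial heat shock genes, none rose and 3 fell, with a median of -0.08. Among all tested genes, 10.3% were called in each direction. CHORDC1, an Hsp90 co-chaperone, was at 78.8 ± 7.67 CPM in N and 57.4 ± 5.76 CPM in A (log2 -0.45, SE 0.0690, edgeR adjusted p = 0.000795), and 9 of 10 A clones lay below every N clone. CACYBP and HSPD1, the mitochondrial Hsp60, fell by 0.30 and 0.43 on the log2 scale (edgeR adjusted p = 0.0209 and 0.0292). The stress regulator HSF1 and the inducible HSPA1A had log2 differences of -0.05 (SE 0.108) and -0.02 (SE 0.340) and did not pass. Of 9 endoplasmic reticulum chaperone and stress genes, only HERPUD1 passed, falling by 0.46 (SE 0.143, edgeR adjusted p = 0.0323), with a median of -0.18 for the list.

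Markers of other cell types were read from the same fit, beside the 10.3% of all tested genes called in each direction. Of 10 tested smooth muscle and pericyte genes 9 had higher values in A and 1 passed, near that share, with a median of 0.56. It was MYH11, the smooth muscle myosin, at 0 to 2.11 CPM in N and 0.131 to 115 CPM in A (log2 3.04, SE 1.05, edgeR adjusted p = 0.0484). The sum of the 11 listed genes was 3945 to 19182 CPM in N and 8987 to 20677 CPM in A, and the low end in N was clone 22-5.

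The 6 skeletal muscle genes in the table were too low to be tested, with 0 counts of MYOD1 in every clone. Of 6 tested mesothelial genes 4 had lower and 2 had higher fitted values in A. Only MSLN passed, and it fell (log2 -1.97, SE 0.645, edgeR adjusted p = 0.0393). The sum of the 7 listed was 8.82 to 9198 CPM in N and 7.73 to 1095 CPM in A. Of 5 macrophage genes only 1, CD68, passed the filter on low counts. It rose from a mean of 1.72 CPM in N to 3.62 CPM in A (log2 1.06, SE 0.281, edgeR adjusted p = 0.0157). The summed level of the 5 genes was 0.649 to 10.4 CPM in N and 2.75 to 11.4 CPM in A.

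None of 3 tested endothelial genes passed, with sums of 1.07 to 41.3 CPM in N and 5.12 to 23.7 CPM in A, and none of 6 MSC genes passed. Of 4 tested adipocyte genes, PPARG, the master regulator of adipogenesis, and PLIN1, a lipid droplet coat protein, rose (log2 3.77 and 0.53, edgeR adjusted p = 0.00486 and 0.0456). The part of these marker differences in the values of the small heat shock proteins was not tested. In the interaction of condition and animal, none of the tested genes of these lists passed by edgeR. Only 0.031% of all tested genes passed there, so this count says nothing particular about the lists.

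**Figure D5:**
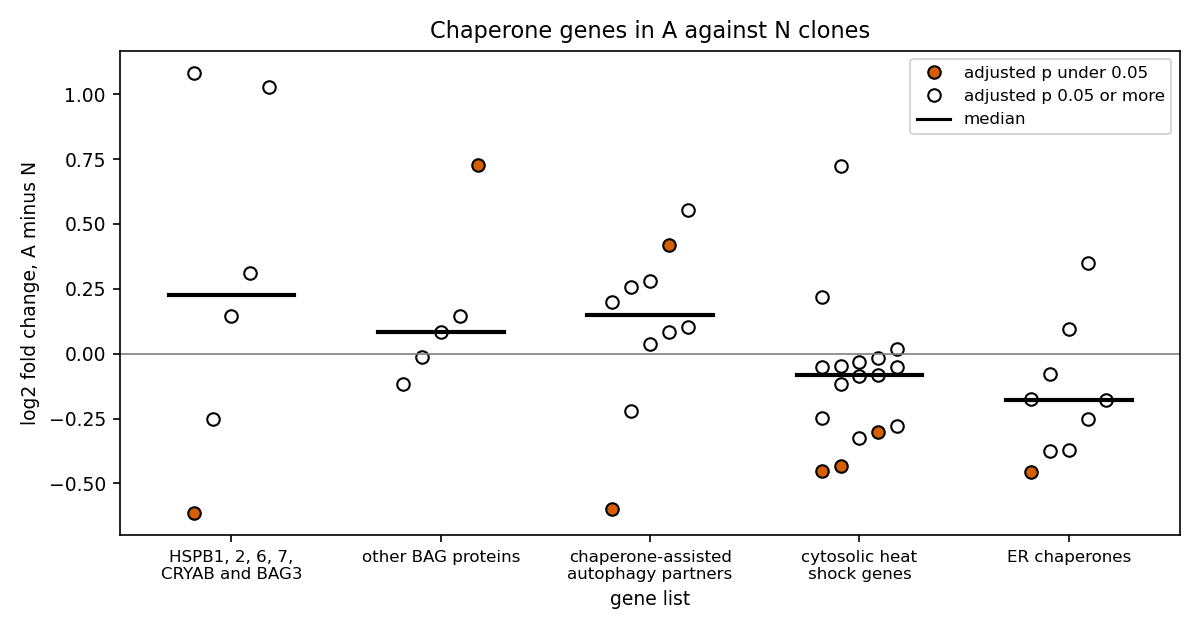
Log2 difference between A and N clones for the tested genes of the family and chaperone lists, over all 20 clones, with 1 point per gene, filled where the edgeR adjusted p was under 0.05 and with a bar at the list median. Heat shock and endoplasmic reticulum genes lie mostly below 0, with medians of -0.08 and -0.18, and in the first column, of the 6 genes compared above, HSPB2 is the filled point.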

How the data were processed

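RNA from 20 undifferentiated bovine MSC clones was sequenced in a stranded library format. Raw read counts for every gene were deposited by the authors, made per the labels and the study's methods with Trimmomatic 0.36, STAR 2.5.2b, the ARS-UCD1.2 genome and featureCounts of Subread 1.5.2. Strand setting and handling of overlapping genes are not given in the sources used here. A row without a gene name, 0.113% to 0.333% of a clone's counts, was left out. The number of columns from other samples was 0.

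Counts were analysed with edgeR 4.0.16 in R 4.3.3 (TMM, default expression filter on condition, robust quasi-likelihood F test), adjusting by Benjamini-Hochberg and blocking on animal. SEs were derived from the F statistic. The interaction of condition and animal (23 minus 22) was fitted on 16 clones, with 12915 genes tested. Log2 CPM used a prior count of 2. Intervals of log2 differences are 95% and unadjusted. Clones were paired by animal of origin. Within animals 17, 20, 22 and 23, the mean deviations of A and of N clones had correlations of 0.253, 0.193, 0.241 and 0.440. Alternatives were DESeq2 1.42.0, limma 3.58.1 (voom), other normalization and filters, no block, and leaving out animals or clones. The fits were tested on simulated data.

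The 7 genes and all lists were chosen with earlier results of these data known, HSPB8 for its values and the other 6 genes by family and function. Named genes are the 7, up to 4 genes per list with the smallest adjusted p under 0.05, and the 5 most and 3 least like HSPB8 by Pearson correlation. Other genes named were chosen after their values were seen, except marker genes, which were listed by cell type. PAX7 was not analysed here. No genome or sequence table of the files' build was used, so no coordinates are given. The result of 1 listed gene is not reported here.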

Additional observations from a re-analysis of the deposited data

Results flagged for a closer look

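The A against N difference of HSPB8 differed between animals 23 and 22 by 7.80 on the log2 scale. It is listed as a difference between groups, but HSPB8 was chosen for it, so it is a description. In the N clones of animal 22, HSPB8 in clone 22-18 lay far above the others, at 92.6 CPM against 28.3 CPM in the next clone, a gap that in log2 CPM made up 0.877 of the range. In the N clones, HSPB6 in clone 22-5 lay far below the others, at 11.2 CPM against 102 CPM, a gap of 0.629 of the range on the log2 CPM scale. In the A clones of animal 22, BAG3 in clone 22-27 lay far above the others, at 180.0 CPM against 110.0 CPM, a gap of 0.864 of the range on the log2 CPM scale. Of 42 groups examined for such outlying clones 3 were found, where chance alone gives about 2.1.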

How the results depend on the processing

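The interaction of HSPB8 ran from 7.20 to 7.88 under the other tools, normalization, filter and sample choice, and from 7.10 to 8.12 leaving out 1 clone. HSPB8 over all animals turned to -0.12 without animal 23, and requiring 10 counts in every clone removed it from the fit. CRYAB turned to 0.093 without animal 23. The HSPB6 interaction turned to -0.79 with limma-voom. Leaving out 1 clone, the interaction ran from -0.35 to 0.082 for HSPB2, -0.38 to 0.67 for HSPB6, -0.36 to 1.04 for HSPB7 and -1.02 to 0.055 for CRYAB.

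Of the 6 genes tested, 1 was called. Without the replicate block (pairing by animal) the number was 0, with DESeq2 2, with limma-voom 0, without animal 22 0 and without animal 23 0. Leaving out 1 clone gave 0 to 2. All genes called between A and N numbered 2658, and 1471 without animal 22, 32 without animal 23 and 1984 to 3133 leaving out 1 clone. Genes with an interaction numbered 4 with edgeR, 116 with DESeq2 and 0 with limma-voom (960 at an unadjusted p under 0.05), and 0 to 11 leaving out 1 clone. HSPB8 in the N clones of animal 23 rests on 8 counts, so its ratio has a wide interval. HSPB2 has few counts. The causes of these changes were not tested.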
